A study of Gallus gallus with 7 samples.

Results

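TFAP2B encodes AP-2beta, one of a small family of transcription factors that bind DNA as dimers. Members of the family are among the factors known to act at the neural plate border and in the neural crest, the migratory cell population of vertebrate embryos. AP-2beta is known for roles in crest derivatives such as sympathetic neurons. Here the gene ENSGALG00000016680, taken as TFAP2B, was described together with every chromatin region listed on its chromosome within 100 kb of its start or end. That choice gave 1 gene of 24881 and 8 regions of 25469, of which 5 overlapped exons of the gene and 3 lay outside it. The gene was singled out because its exon-overlapping regions stood high in the tfap2B pull-down, so it was chosen by the scaled reads of those regions in tfap2B, sox10 and input. Those values are given as a description, with no test.

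The deposited tables do not pair gene IDs with symbols. In RefSeq (GRCg7b), TFAP2B is on chromosome 3 and its next protein-coding gene on one side is TFAP2D, another member of the family. Neither ENSGALG00000016680 nor its neighbours could be matched to a RefSeq symbol, so the name TFAP2B is taken as given and was not checked. ENSGALG00000016680 is annotated on the minus strand of chromosome 3, from 108690400 to 108715816 (galGal5), with 8 separate exons that total 1423 bp, or 5.60% of the 25417 bp of the gene body. Exons are numbered here from the start of the gene, at its highest coordinate. Whether an exon is coding was not determined, because the table does not mark coding sequence.

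All 7 libraries came from wild-type chicken embryos whose vagal region, at the level of the hindbrain, was dissociated and sorted for citrine fluorescence. The RNA library (1 sample) came from NC2-positive cells at Hamburger and Hamilton stage 10 (HH10) after NC2:citrine was electroporated at HH4. The 6 chromatin libraries came from E2-positive cells at HH18 after E2:citrine was electroporated at HH8. They comprise 2 sox10 pull-downs, 2 tfap2B pull-downs and 2 inputs. For the pull-downs, per the series' design text, the transcription factor was introduced by electroporation as an Avi-tagged protein with the biotin ligase BirA, and chromatin was recovered on streptavidin beads without an antibody. The labels call the sorted cells neural crest, and marker genes could not be read without symbols. No pull-down without a tagged factor was analysed here.

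The chromatin table gives reads per region multiplied by 1 constant per library, called scaled reads here. The pull-downs held 1366132 to 3498728 reads in regions and the inputs 7989029 and 13921317, and the RNA library held 28777461 counts. The least value in any region and library is 1 read, so a listed 1 may stand for 0 or 1. The median region on a placed chromosome had 124 and 122 scaled reads in sox10 replicates 1 and 2, 141 and 121 in tfap2B, and 106 and 206 in input. The labels do not say whether replicates came from separate pools of embryos, so the p-values reflect the spread among these libraries, part or all of which may be technical.

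The 5 exon-overlapping regions carried more tfap2B than sox10 signal, by a margin that differed widely between exons. The 3 regions upstream of the gene carried about as much tfap2B as sox10 signal. The highest in tfap2B was the region over exon 3 (108710618 to 108711118), the longest exon of the gene. It had 18945 and 7940 scaled reads in tfap2B replicates 1 and 2, 323 and 339 in sox10, and 56.3 and 0.363 in input. No region on a placed chromosome was higher in either tfap2B library. The mean was 13443 ± 7781 in tfap2B and 331 ± 11.3 in sox10 (SD, n = 2), a ratio of 40.6.

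The region over exon 8, the last exon (108690314 to 108690814), followed with 5451 and 2264 scaled reads in tfap2B, 129.8 and 192 in sox10, and 0.695 and 1.81 in input. Its means were 3857 ± 2254 in tfap2B and 161 ± 43.9 in sox10 (SD, n = 2), a ratio of 24.0. Of the 13888 placed regions it was at positions 5 and 6 in tfap2B replicates 1 and 2, but at 6207 and 2611 in the sox10 libraries. The tfap2B and sox10 values did not overlap.

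**Figure D1:**
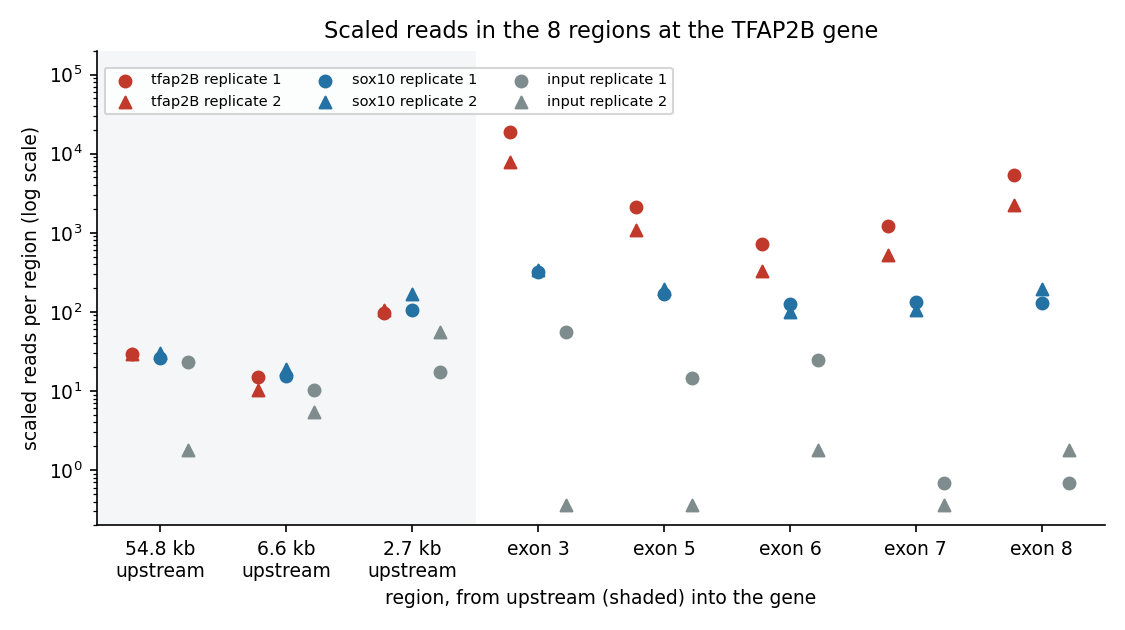
Scaled reads (log scale) of the 8 regions in each of the 6 HH18 chromatin libraries, ordered from upstream of the gene (shaded) to exon 8; colours mark the pull-down or input and symbols the replicate. In the 5 exon regions both tfap2B libraries lie above both sox10 libraries, by a ratio of means of 4.69 to 40.6, and in the 3 upstream regions tfap2B and sox10 lie close together.

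The other 3 exon-overlapping regions held less tfap2B signal. Over exon 5 (108697580 to 108698080) the tfap2B libraries had 2131 and 1068 scaled reads, the sox10 libraries 167 and 192, and the inputs 14.6 and 0.363. Over exon 7 (108692806 to 108693306) they had 1205 and 525 in tfap2B, 133 and 105 in sox10, and 0.695 and 0.363 in input. These regions stood 8.91 and 7.25 times higher in tfap2B than in sox10 by their means.

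Exon 6 (region 108695387 to 108695887) had the lowest signal of the 5, with 723 and 329 scaled reads in tfap2B, 126 and 98.3 in sox10, and 24.3 and 1.81 in input, and a ratio of means of 4.69. Even there the lower tfap2B library stood 2.61 times above the higher sox10 library. Among placed regions exon 6 was at positions 28 and 197 in tfap2B replicates 1 and 2, and exon 7 at 12 and 48. In all 5 regions both tfap2B libraries exceeded both sox10 libraries, as they did in 21.9% of all tested regions. Because these values chose the gene, nothing is read from that count.

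On the scale log2(scaled reads + 1), which understates the change of low regions, the tfap2B minus sox10 difference was 5.21 over exon 3, 4.47 over exon 8, 3.07 over exon 5, 2.74 over exon 7 and 2.12 over exon 6. Their median was 3.07, against 0.16 over all placed regions and 0.32 over the 6567 placed regions that overlapped an exon. Of the 13888 placed regions, 16 reached 2.12 or more, and 5 of these were the exon regions of this gene. That cutoff is the lowest of the 5 values, so all 5 reach it by construction, and these values chose the gene. Outside the gene the highest placed region reached 3.03. Among unplaced sequences, where 44 regions reached 2.12, the highest was 3.56. The regions over exons 3 and 8 thus exceeded every listed region outside the gene in this difference.

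**Figure D2:**
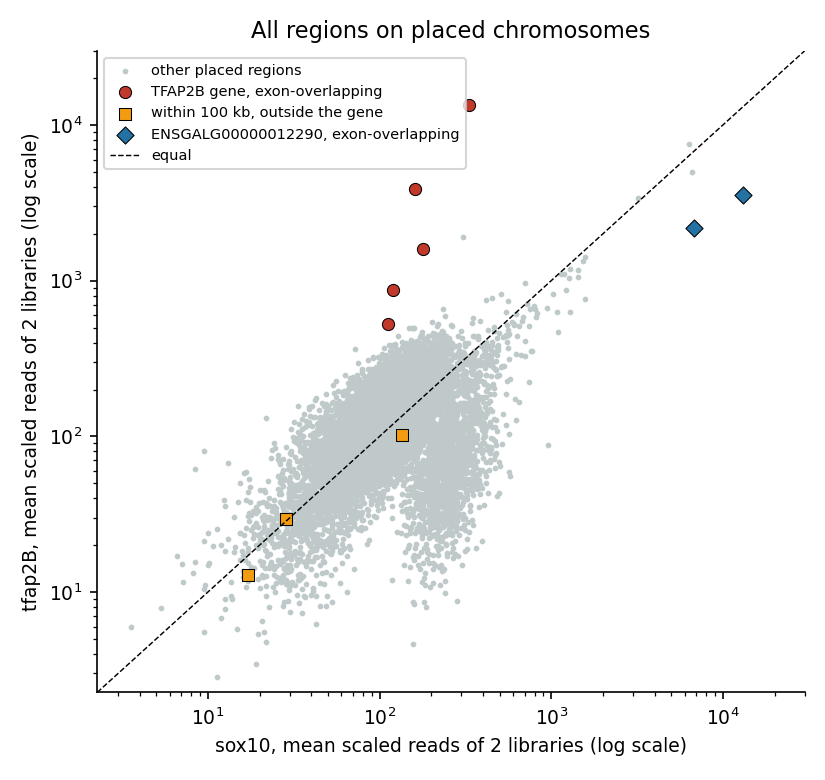
Mean scaled reads of the 2 tfap2B libraries against those of the 2 sox10 libraries (both log scales) for the 13888 placed regions; the dashed line marks equal values. The 5 exon-overlapping regions of the TFAP2B gene lie far above the line, the 3 regions outside the gene lie near the line, and the exon-overlapping regions of ENSGALG00000012290 lie below it.

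In the exon regions other than exon 3, the sox10 libraries stood at 0.808 to 1.58 times their own median over the listed placed regions. In all 5 exon regions, both sox10 libraries also stood above both inputs, as in 30.6% of all tested regions. These values were among those that chose the gene, so nothing is read from that count. Relative to the placed median of each library, sox10 replicates 1 and 2 had 1.05 and 1.58 times the median over exon 8, 1.35 and 1.58 over exon 5, 1.08 and 0.865 over exon 7, and 1.02 and 0.808 over exon 6. Over exon 5 the sox10 libraries were at positions 3037 and 2611 of the placed regions. The region over exon 3 was the highest of the 5, at 2.61 and 2.79 times, at positions 297 and 520. The tfap2B libraries had 134 and 65.7 times their median there, and 5.11 and 2.72 times over exon 6, the lowest.

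Both inputs were low over the exons, which enters any comparison with input. Input 1 had 81 reads over exon 3, 21 over exon 5, 35 over exon 6 and 1 each over exons 7 and 8. Input 2 had 1 read over exons 3, 5 and 7 and 5 reads over exons 6 and 8. These values were at most 0.529 times the placed median of input 1 and at most 0.00879 times that of input 2. For this reason neither a fold nor a log2 difference from input is given for the exon regions.

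Summed over the 5 exon regions, the tfap2B libraries held 31797 and 5823 reads, the sox10 libraries 732 and 396, and the inputs 139 and 13. As a share of all reads in regions these were 0.909% (95% Wilson interval 0.899 to 0.919%) and 0.414% (0.404 to 0.425%) in tfap2B. In sox10 they were 0.0289% (0.0269 to 0.0311%) and 0.0290% (0.0263 to 0.0320%). The intervals of the sox10 libraries overlapped, and those of the tfap2B libraries did not, which is given as a description. The intervals cover counting error only.

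The tfap2B replicates differed by a like factor at each exon. Replicate 1 had 2.39 times the scaled reads of replicate 2 over exon 3, 1.99 times over exon 5, 2.20 over exon 6, 2.30 over exon 7 and 2.41 over exon 8. Over all placed regions the median of this ratio was 1.17, with 0.525 and 2.21 as the 10th and 90th percentiles. In the 3 regions outside the gene it was 0.918, 1.46 and 1.01, moving away from the exons from 2.7 to 54.8 kb. All 5 exon regions were thus above the median ratio, and the regions beside the gene lay on both sides of it. The exon regions share the same libraries, and their tfap2B values were among those that chose the gene. Nothing is therefore read from that count.

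The exon regions followed the exons closely in position. The centre of the region lay 10.5 bp from the centre of the exon for exons 7 and 8, 9.5 bp for exon 5 and 16.0 bp for exon 6, and those exons lay wholly inside their regions. For exon 3, whose 459 bp nearly fill a region, the centres were 104 bp apart and 376 bp of the exon were covered. For comparison, 384 other placed regions overlapped exactly 1 exon shorter than 500 bp and lay over 1 kb from a transcription start site (TSS). Their median offset was 133 bp, and 29 of them (7.55%) were within 16 bp. That limit is the offset of exon 6, the largest among exons 5 to 8. Those exons thus meet it by construction, and exon 3 does not meet it.

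No region was listed wholly in an intron of the gene. In all, 108 genes had 5 or more placed regions within their body, and ENSGALG00000016680 was the 1 among them whose regions all overlapped exons. It was also 1 of only 2 genes with at least 5 exon-overlapping regions. By the mean tfap2B minus sox10 difference of their exon-overlapping regions, it ranked first of 6707 genes at 3.52. Among other genes with at least 2 such regions the highest mean was 1.66, and among those with any it was 3.03. This rank uses the values that chose the gene.

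**Figure D3:**
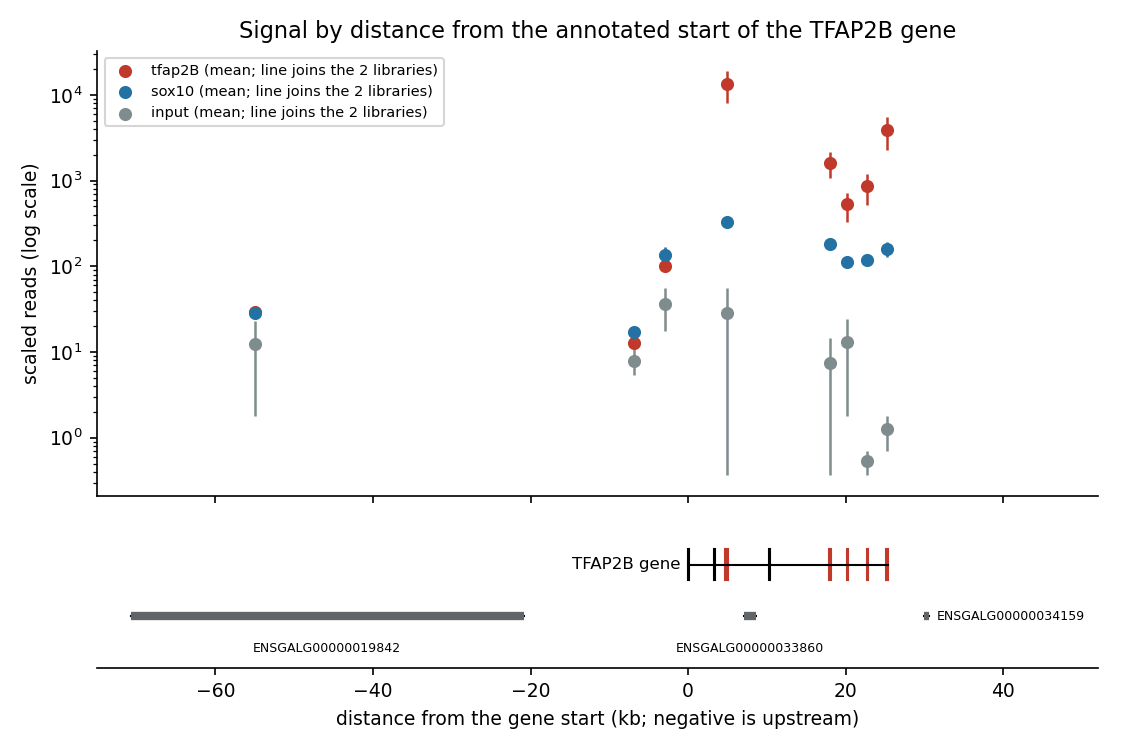
Scaled reads (log scale) against distance from the annotated start of the TFAP2B gene in kb, with the gene models below; points are means, lines join the 2 libraries, and exons are widened where needed to be visible. The tfap2B signal is high over the 5 exons drawn in red and low at the 3 regions upstream; exons drawn in black have no listed region, and the grey bars are the other genes annotated there.

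The order of the tfap2B signal was the order of exon length. The 5 exons with a region are the 5 longest, at 459, 308, 220, 142 and 119 bp for exons 3, 8, 5, 7 and 6, and the tfap2B signal had the same order in both replicates (Spearman's rho 1 over 5 regions of 1 gene). The exons without a region are exons 1, 2 and 4, at 87, 27 and 61 bp. In sox10 the rank correlation with exon length was 0.70 and 0.97 over a much smaller range, 2.56 and 3.45 times from lowest to highest against 26.2 and 24.1 times in tfap2B. Over 793 other placed regions that overlapped exactly 1 exon and lay over 1 kb from a TSS, the rank correlation with exon length was -0.0038 and 0.039 for the tfap2B libraries. Those regions pool many genes, and only 384 of them lay over an exon shorter than 500 bp. That value is thus no measure of the order within a gene, and whether other genes show such an order was not tested. These correlations are across regions, which share libraries, and are descriptions. The table lists only regions the authors kept, so an exon without a region has no value, not a value of 0.

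**Figure D4:**
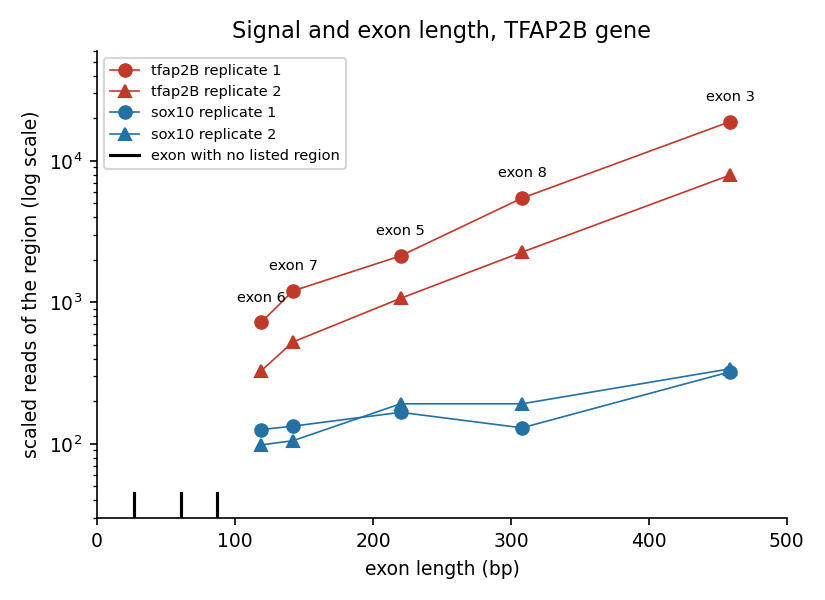
Scaled reads (log scale) of each exon-overlapping region against the length of its exon in bp, for both tfap2B and both sox10 libraries; black ticks mark the lengths of the 3 exons with no listed region. Both tfap2B libraries rise at each step from the 119 bp exon to the 459 bp exon, and the sox10 libraries stay between 98.3 and 339.

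The differences between exons were larger than in proportion to length. Divided by the exon bases inside the region, the tfap2B signal went from 6.08 scaled reads per exon base over exon 6 to 50.4 over exon 3 in replicate 1, and from 2.76 to 21.1 in replicate 2. The 5 regions together covered 1165 bp of exon, which was 46.5% of their length. The exons with a region made up 87.7% of all exon bases of the gene.

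Since the tagged factor was itself introduced as DNA, reads from introduced DNA that carries TFAP2B exon sequence and reads from the exons of the chromosomal gene cannot be told apart in counts per region. The sources used here do not give the introduced sequence, and the part of either source in these values was not tested.

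ENSGALG00000012290 on chromosome 1 was named by rule and was not drawn as a typical gene. Its 2 exon-overlapping regions had 2413 and 11125, and 4911 and 21446 scaled reads in the sox10 libraries. The inputs had 163 and 0.363, and 91.7 and 33.7. There the tfap2B libraries were also high, at 3666 and 691, and 6041 and 1025, so sox10 led by ratios of means of only 3.11 and 3.73, and tfap2B replicate 1 exceeded sox10 replicate 1 in both.

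The 3 regions outside the gene lay upstream of its start, and none showed the tfap2B signal of the exons. The nearest (108718482 to 108718982, 2.67 kb from the gene) had 97.5 and 106 scaled reads in tfap2B, 105 and 166 in sox10, and 17.4 and 55.9 in input. Both libraries of each pull-down stood above both inputs, as in 26.1% of all tested regions for tfap2B and 30.6% for sox10, and the pull-downs overlapped each other. Its log2 difference from input was 1.67 ± 0.76 for tfap2B (SE, limma adjusted p = 0.130) and 2.04 ± 0.76 for sox10 (SE, limma adjusted p = 0.0624), neither past the threshold of 0.05. Without input replicate 2, which leaves 1 input library, the differences were 2.48 for tfap2B and 2.85 for sox10. Without input replicate 1 they were smaller, at 0.85 for tfap2B and 1.22 for sox10. With libraries scaled to their total reads in regions both passed, at 2.45 (limma adjusted p = 0.0483) and 2.78 (limma adjusted p = 0.0270). That setting called 4688 of 25281 tested regions higher for tfap2B and 6167 for sox10, against 2721 and 4660 with the deposited scaling. For sox10 a pseudocount of 10 and DESeq2 size factors also gave a pass, at 1.74 (limma adjusted p = 0.0431) and 2.52 (limma adjusted p = 0.0322). These settings called 5495 and 5045 of all tested regions higher for sox10.

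The second (108722451 to 108722951, 6.64 kb from the gene) was low in every library, with 15.2 and 10.4 scaled reads in tfap2B, 15.6 and 18.7 in sox10, and 10.4 and 5.44 in input. Both sox10 libraries were above both tfap2B libraries by a small margin, as in 25.9% of all tested regions. The log2 differences from input were 0.67 ± 0.81 for tfap2B (SE, limma adjusted p = 0.546) and 1.08 ± 0.81 for sox10 (SE, limma adjusted p = 0.298).

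The third (108770584 to 108771084, 54.8 kb from the gene) lay inside ENSGALG00000019842 but outside its exons. It had 29.5 and 29.2 scaled reads in tfap2B, 26.4 and 30.4 in sox10, and 22.9 and 1.81 in input. The pull-downs overlapped. Both libraries of each pull-down stood above both inputs, as in 26.1% of all tested regions for tfap2B and 30.6% for sox10. It differed from input by 1.89 ± 1.12 for tfap2B (SE, limma adjusted p = 0.224) and 1.84 ± 1.12 for sox10 (SE, limma adjusted p = 0.207). Without input replicate 1, which leaves the input of 1.81, the differences were 3.43 for tfap2B and 3.38 for sox10. Without input replicate 2, which leaves the input of 22.9, they were 0.34 for tfap2B and 0.30 for sox10. The size of the difference thus depended on which input was kept.

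With all 6 libraries, limma called 0 of these 3 regions above input for tfap2B, where 10.8% of all 25281 tested regions were called higher, and 0 of 3 for sox10, where 18.4% were. At an unadjusted p under 0.05, in either direction, limma had 0 of 3 for tfap2B, against 43.2% of all tested regions, and 1 of 3 for sox10, against 52.6%. After adjustment edgeR's quasi-likelihood test also called 0 of 3 for each factor, where it called 7.61% of all tested regions higher for tfap2B and 10.1% for sox10. The median log2 difference from input over all tested regions was -0.14 for tfap2B and -0.40 for sox10 with limma, and 0.041 and -0.26 with edgeR.

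The pull-downs were not shown to differ from each other in these 3 regions. The sox10 minus tfap2B difference was 0.37 in the nearest region (95% interval -1.39 to 2.13, limma adjusted p = 0.998), 0.41 in the second (-1.45 to 2.27, limma adjusted p = 0.998) and -0.05 in the third (-2.62 to 2.53, limma adjusted p = 1.00). In this comparison limma called 0% of the tested regions in either direction; 1059 had an unadjusted p under 0.05, and edgeR also called 0. Without the inputs, limma called 2.47% of regions higher in sox10 and 0.103% higher in tfap2B, and again none of these 3. The intervals above use a spread fitted to all 6 libraries, so scatter between the inputs enters their width. Fitted without the inputs, the SE was 0.413 in place of 0.761 in the nearest region and 0.702 in place of 0.807 in the second. In the third it was 0.594 in place of 1.12. The differences were unchanged, and each interval still included 0.

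The nearest regions beyond 100 kb were far off. On the downstream side a region 188 kb away had 26.0 and 22.9 scaled reads in tfap2B, 43.3 and 35.1 in sox10, and 28.5 and 9.07 in input. On the upstream side, at 558 kb, there were 274 and 112 in tfap2B, 191 and 239 in sox10, and 29.9 and 43.5 in input. Neither reached the 329 scaled reads of the lower tfap2B library over exon 6.

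RNA was read here only at HH10, earlier than the chromatin, and the gene was well expressed then. ENSGALG00000016680 had 7275 counts, which is 253 CPM (counts scaled to the total of the library; 95% exact Poisson interval 247 to 259), rank 916 of 24881 genes. Per length this was 178 CPM per kb of exon, or RPKM (174 to 182), rank 554, with 2.22% of genes higher. Its CPM was 11.0 times the median of the 13410 genes with a count, 23.0 CPM. The genes just above it by CPM, ENSGALG00000016720 and ENSGALG00000010273, had 7282 and 7281 counts, and those just below, ENSGALG00000017009 and ENSGALG00000017185, had 7263 and 7257. Their intervals overlapped, so the order among these 5 was within counting error. With a single RNA library no level here could be checked in a replicate, and more expressing cells and more RNA per cell cannot be told apart in it.

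**Figure D5:**
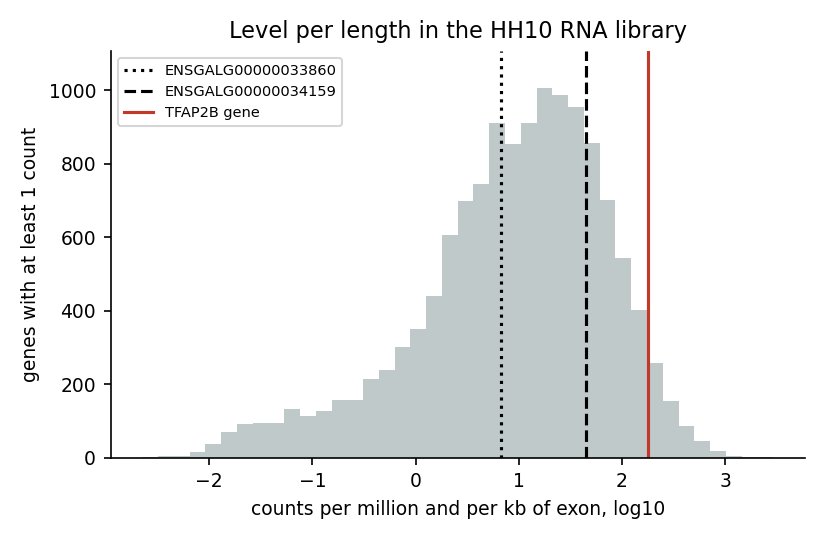
Number of genes by level per length at HH10 (log10 of RPKM), for the 13410 genes with at least 1 count; lines mark the TFAP2B gene and its neighbours. The TFAP2B gene, at 178, lies in the upper tail, above ENSGALG00000034159 at 44.2 and ENSGALG00000033860 at 6.78.

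The other genes annotated within 100 kb were lower. ENSGALG00000034159, on the same strand 4.50 kb beyond the last exon (108685224 to 108685904), had 722 counts, or 44.2 RPKM. ENSGALG00000033860, on the opposite strand inside the gene between exons 3 and 4 (108707196 to 108708757), had 64 counts, or 6.78 RPKM, and shared 0 bp of exon with it. ENSGALG00000019842, upstream on the same strand (108736673 to 108786566), had 0 counts, and the limit of 3 counts for a count of 0 is 0.104 CPM. None of the 8 regions overlapped an exon of these 3 genes, although they held the nearest TSS of 6 of the 8.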

How the data were processed

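Per the submitters' processing notes, reads were handled on galGal5 with tools that include DiffBind, DESeq2, Bowtie, featureCounts, Subread 1.4.5 and STAR 2.4.2a; their roles are not stated. The sources used here do not give how regions were called. Although labelled raw counts, the deposited chromatin values are a signal, reads times 1 constant per library, and 100% of them are whole multiples within 0.01 read. The deposited RNA table holds raw counts per gene, per the file headers; its HH10 column occurs 2 times with identical values, and 21 columns that belong to other samples were left out. The exon length column was used as deposited. Strand use in counting is not given.

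Coordinates are printed as the tables give them; whether region starts count from 0 or 1 is not stated. A low-read filter (filterByExpr, edgeR 4.0.16) left 25281 regions and removed 188; all 8 described regions passed. Regions were tested on log2(scaled reads + 1) by limma 3.58.1 (trend option), with all 6 libraries, 3 residual degrees of freedom and Benjamini-Hochberg adjusted p under 0.05 over all tested regions. On simulated regions of equal spread it was checked only for returning a large added shift, which does not check its error rate on these libraries. Alternatives were a pseudocount of 10, total reads, DESeq2 1.42.0 size factors, edgeR on recovered reads and no filter. Others were a replicate block, only the groups compared, each library left out, and windows of 50 and 200 kb. Total reads here means the reads of a library within the listed regions, not its sequencing depth.

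The gene, the regions and the lists were chosen with earlier results of these data known. The gene, all regions in the window, the genes overlapping it, the 2 genes above and below in rank and ENSGALG00000012290 are named by rule. AP-2 family, crest and cell type marker lists could not be read, because 0 of 24881 IDs matched a symbol in the RefSeq table. No sequence or motif was used here.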

Additional observations from a re-analysis of the deposited data

How the results depend on the processing

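Over the 5 exon-overlapping regions the median tfap2B minus sox10 difference was 3.07 and ranged from 2.57 to 3.57 over all alternatives. Of 200 exon region values under alternatives, 9 moved past the replicate spread and 0 changed sign. Most could not pass it by construction. These values also chose the gene, so nothing is read from the range or from the absence of sign changes. The number of regions was 7 with a window of 50 kb and 9 with 200 kb. The rank and level per length at HH10 were the same among genes with at least 10 counts and with merged exon length. For the 3 regions outside the gene, 110 of 120 values kept their direction and side of the threshold. A further 8 passed only under an alternative, some of these a fit that leaves 1 input library. The sox10 minus tfap2B difference of the third region changed from -0.05 to 0.082 with DESeq2 size factors, and ranged from -0.145 (without sox10 replicate 2) to 0.050 (without sox10 replicate 1) with 1 library left out.

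Counts over all regions were less stable. For tfap2B against input, 2721 higher and 4401 lower regions became 4688 and 2157 with total reads, 1230 and 2858 with only those groups, 2626 lower with DESeq2 factors and 2404 lower with edgeR. With 1 library left out they ranged from 0 to 6166 higher and from 0 to 6684 lower. Dropping either tfap2B replicate gave 0 of both, dropping sox10 replicate 1 or 2 gave 1159 or 1171 higher and 2296 or 2371 lower, and dropping input replicate 1 or 2 gave 6166 or 6122 higher. For sox10 against input, 4660 and 5632 became 2548 and 2900 with edgeR, 3030 higher with only those groups, and 2449 and 2777 lower with total reads and DESeq2 factors. With 1 library left out they ranged from 462 to 7095 higher and from 203 to 8864 lower. Dropping sox10 replicate 1 or 2 gave 965 or 462 higher, dropping tfap2B replicate 1 or 2 gave 2985 or 2951 higher, and dropping input replicate 1 or 2 gave 8864 lower or 7095 higher. With total reads the higher regions made up 68.5% of the calls in place of 38.2% for tfap2B, and 71.6% in place of 45.3% for sox10. For sox10 against tfap2B, 0 and 0 became 625 and 26 without the inputs; with 1 library left out 0 were higher and 0 to 2 lower, 2 when either input was dropped. The cause was not tested.

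Replicate numbers are shared between groups, but nothing in the labels says that they mark a pairing. Same-numbered libraries deviated together with r of 0.049 for sox10 and tfap2B, -0.032 for sox10 and input and -0.27 for tfap2B and input. With the replicate block, 1982 and 3307 regions were called for tfap2B against input, 3668 and 4310 for sox10 against input, and 0 and 0 between the factors, and no call of the 3 regions outside the gene changed. A crossed block, added after seeing the data, gave 3544 and 4427 for tfap2B against input.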
